A study of Mus musculus with 1024 samples.

Results

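The nuclear-encoded genes of the mitochondrial respiratory chain were described in single cells sorted from the mouse aorta. Members were the rows of the count table whose symbol starts with Nduf, Uqcr, Cox4 to Cox8 or Atp5, or is Sdh followed by a, b, c or d. The rule found 92 of 24422 genes. By name, 37 were subunits of complex I, 4 of complex II, 8 of complex III, 17 of complex IV and 15 of complex V. A further 7 were complex I assembly factors (Ndufaf) and 4 were no subunit of a complex (Atp5s, Atp5sl, Cox7a2l and Ndufa4l2). Ndufa4 was counted with complex I by its name, although its protein is now placed in complex IV. No mitochondrially encoded subunit was among the genes of the table.

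The respiratory chain passes electrons from NADH (complex I) and succinate (complex II) through complex III to complex IV, which reduces oxygen to water. Complexes I, III and IV pump protons out of the mitochondrial matrix, and complex V, the ATP synthase, lets them flow back and makes ATP. Most subunits are encoded in the nucleus and imported, and several complex IV subunits exist as a common form and as forms restricted to heart and skeletal muscle, lung, smooth muscle or brown fat. Endothelial cells (ECs) are known to draw much of their ATP from glycolysis.

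Cells came from aortas of mice aged 3 months on a C57BL/6 background, and every well carried the same strain label, Amotl2flow/flow / Cdh5-RREert /ROSA26-EYFP. WT mice kept AmotL2, a scaffold protein that links VE-cadherin to the cytoskeleton. KO mice had lost it through a tamoxifen-activated Cre recombinase driven by the Cdh5 promoter, so the deletion was directed at ECs and not at other cells of the wall. Cells were depleted of Cd45+ cells with beads and sorted through a Cd31+Cd45- gate (label Endothelial) or a Cd31-Cd45- gate (label DoubleNegative). Smart-seq2 turns the polyadenylated RNA of each well into full-length cDNA, with no molecular identifiers, so counts are of reads after duplicate removal. The design had 6 mice per genotype over 2 independent experiments. The labels give a sort number, which is called the preparation here, and do not say which mouse a well came from. The preparation was thus the replicate, and n was 2 per genotype and gate. P-values therefore measure only the spread between preparations, which may be technical. In preparation 1 WT and KO wells were on separate plates, so genotype and plate cannot be told apart there, and in preparation 2 both were on the same plate. DoubleNegative wells filled the last rows of each plate, so gate and plate row cannot be told apart either.

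Of 1024 wells, 784 held at least 20000 gene counts and 500 genes and were kept, 676 with the Endothelial label (WT 235 and 50, KO 302 and 89 in preparations 1 and 2) and 108 with the DoubleNegative label (WT 42 and 12, KO 40 and 14). Counts were summed over the kept wells of each group and preparation. The 8 sums held between 926398 and 94881185 gene counts, the least in the DoubleNegative sums of preparation 2. Values below are CPM, the counts of a gene after the gene counts of each sum were scaled to the same total, unless another scale is named. Amotl2 stood at 59.9 and 94.0 CPM in the WT and at 51.9 and 45.7 CPM in the KO Endothelial sums. Counts per gene do not resolve the deleted exon, so they check the labels only in part. The EYFP reporter of recombined cells was at 2.38 and 0.353 CPM in WT, at 113 and 85.5 CPM in KO Endothelial sums and at 0 in all 4 DoubleNegative sums. The labels held against 10 endothelial markers, whose summed level was 15294 to 18073 CPM in Endothelial and 42.5 to 1308 CPM in DoubleNegative sums. Clustering named 5 of 7 clusters endothelial-like, 1 smooth muscle-like and 1 fibroblast-like. It put 16 Endothelial wells outside the endothelial-like clusters and 1 DoubleNegative well inside them. The DoubleNegative sums were mixtures of different makeup, with 26 fibroblast-like and 16 smooth muscle-like wells for WT and 9 and 31 for KO in preparation 1, against 1 and 10 (with 1 endothelial-like well) and 1 and 13 in preparation 2. In such a sum, fewer cells of a type and less RNA per cell cannot be told apart.

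Promoters of 76 members were found in RefSeq (GRCm38.p6), as 250 bases before to 50 bases after the gene start. They were searched on both strands, with overlapping matches of the same motif counted once, for the core sites of 3 factors known to control nuclear genes for mitochondrial proteins, NRF1 (GCGCANGCG), the ETS family with GABP (CCGGAAG) and YY1 (AAGATGGCG). The NRF1 core stood in 22 members (28.9%), against 7.03% of 27025 genes with a promoter and 15.1% of the 9607 of them that were tested between the gates. The ETS core stood in 17 members (22.4%), against 9.93% of all and 19.8% of tested genes. The YY1 core stood in 8 (10.5%), against 1.64% and 3.56%. Shown are the promoters of Ndufa11 and Ndufa13, the subunits called between the gates, of Sdha and Cox7a2l, whose levels lay apart in the other direction, and of the Atp5j start that holds an ETS and a YY1 core. Capitals mark motif matches on either strand, and the last 2 promoters hold none. Their positions are chr17:56717512-56717811 (plus strand) for Ndufa11, chr13:74350191-74350490 (minus) for Sdha, chr16:84834927-84835226 (minus) for Atp5j, chr8:69901971-69902270 (minus) for Ndufa13 and chr17:83514284-83514583 (minus) for Cox7a2l. In GENCODE M21 the Ndufa13 gene reaches to 69902558 and the Cox7a2l gene to 83517330. The stretches shown for these 2 thus lie inside the genes, and their lack of a match depends on the start used.
Ndufa11: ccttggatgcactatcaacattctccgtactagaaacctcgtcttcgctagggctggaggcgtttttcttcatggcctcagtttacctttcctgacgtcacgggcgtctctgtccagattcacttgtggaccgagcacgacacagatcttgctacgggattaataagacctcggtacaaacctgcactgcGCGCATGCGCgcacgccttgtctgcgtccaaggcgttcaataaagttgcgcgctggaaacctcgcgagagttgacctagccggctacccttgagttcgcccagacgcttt
Sdha: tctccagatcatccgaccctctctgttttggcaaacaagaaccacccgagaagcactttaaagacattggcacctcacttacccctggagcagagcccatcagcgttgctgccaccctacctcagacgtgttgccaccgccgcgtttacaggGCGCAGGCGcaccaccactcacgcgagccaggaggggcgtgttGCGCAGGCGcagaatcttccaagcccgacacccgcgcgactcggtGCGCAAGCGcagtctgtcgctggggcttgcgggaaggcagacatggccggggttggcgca
Atp5j: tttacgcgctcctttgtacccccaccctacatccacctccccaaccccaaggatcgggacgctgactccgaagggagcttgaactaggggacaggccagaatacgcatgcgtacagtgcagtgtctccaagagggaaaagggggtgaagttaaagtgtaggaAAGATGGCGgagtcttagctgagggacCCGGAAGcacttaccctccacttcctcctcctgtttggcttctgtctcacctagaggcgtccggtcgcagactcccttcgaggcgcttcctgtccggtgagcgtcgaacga
Ndufa13: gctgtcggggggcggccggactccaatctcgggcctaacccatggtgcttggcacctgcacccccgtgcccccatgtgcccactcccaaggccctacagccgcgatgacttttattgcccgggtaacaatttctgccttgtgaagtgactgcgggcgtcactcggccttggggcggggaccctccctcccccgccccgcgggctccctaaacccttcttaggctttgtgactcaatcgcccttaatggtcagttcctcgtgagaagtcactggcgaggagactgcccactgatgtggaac
Cox7a2l: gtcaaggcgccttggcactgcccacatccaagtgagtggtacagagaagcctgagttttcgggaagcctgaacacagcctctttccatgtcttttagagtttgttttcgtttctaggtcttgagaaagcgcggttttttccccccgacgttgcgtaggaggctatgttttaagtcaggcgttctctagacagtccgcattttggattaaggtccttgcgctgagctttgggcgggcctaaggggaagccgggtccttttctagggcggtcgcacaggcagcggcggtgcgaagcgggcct

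To ask how much each subunit was used, levels were divided by transcript length (CPM per kilobase) and averaged over the 8 sums. The 5 highest members were Cox4i1 at 939, Uqcrh at 673, Cox6c at 633, Ndufa4 at 617 and Cox8a at 531 CPM per kilobase. Of these, 3 are subunits of complex IV by name, with Uqcrh of complex III. Cox4i1, the common form of the regulatory subunit IV, had a count in 778 of 784 wells. Within complex I the level per kilobase spanned 287-fold in Endothelial and 189-fold in DoubleNegative sums, from Ndufs5, a small accessory subunit, at 2.10 and 3.33 to Ndufa4 at 603 and 631. Ndufs5 is uncertain, since 64.0% of the 31-base windows of its transcript occur in no other transcript. Ndufa4 was counted with complex I by its name only, so the top of this span rests on a gene whose protein is now placed in complex IV. Complex II had the narrowest span, 7.29-fold and 5.37-fold, from Sdhc, a membrane anchor, to Sdhb, the iron-sulphur subunit. A span of highest over lowest can widen with the number of members, which was 4 in complex II and 37 in complex I. Median levels per kilobase in Endothelial and DoubleNegative sums were 113 and 141 for complex I, 112 and 81.2 for complex II, 152 and 145 for complex III, 152 and 182 for complex IV, and 167 and 226 for complex V. The assembly factors, which build complex I and are not part of it, were lower at 18.8 and 11.5. No count was found for Cox6a2, Cox7b2 or Cox8c, forms known from heart and skeletal muscle or testis, in any kept well.

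**Figure D1:**
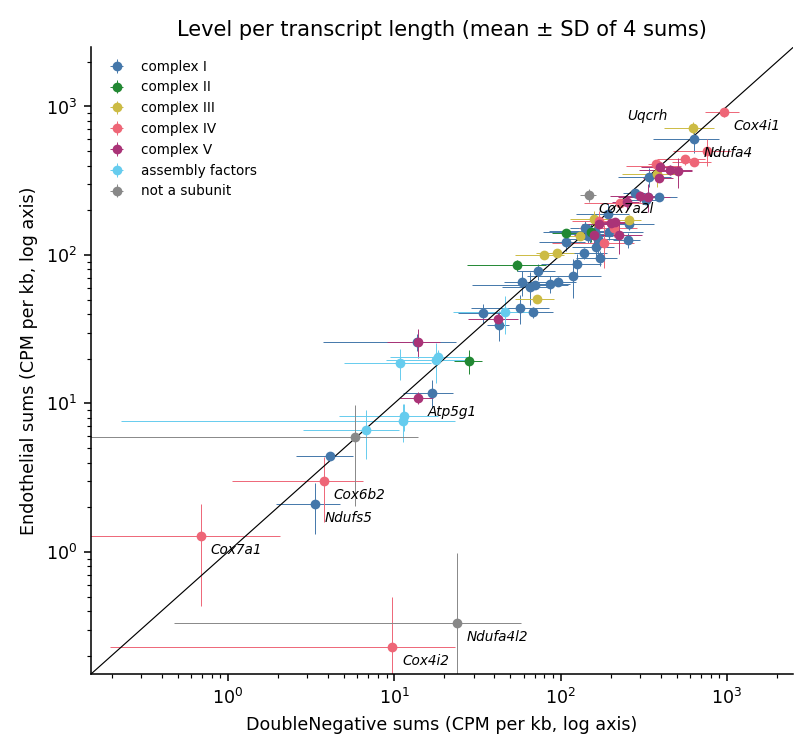
Level per kilobase of transcript (CPM per kb, log axes) of each member with a count in both labels, as the mean of the 4 Endothelial sums (y) against the mean of the 4 DoubleNegative sums (x). Bars are SD over 4 sums and are cut where they would pass 0, colours give the complex and the line marks equal levels. Most members lie close to the line, and Ndufa4l2 and Cox4i2 lie far below it.

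The order of the members was alike in all sums. Spearman's correlation of their CPM between 2 sums, over members that share a library in each sum, was 0.894 to 0.987 within a label and 0.886 to 0.936 between labels, given as a description. Transcript length is read from 1 model per gene and can move single values. For Atp5g1 the model used was 4715 bases long while another of the same rank has 596 bases, and the same holds for Ndufb2 (4371 and 455), Ndufab1 (3479 and 1416) and Uqcrq (1521 and 405). Their place in the order per kilobase is uncertain.

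To compare the chain as a whole, the share of all gene counts that fell on members was taken. It was 1.16% and 1.23% in WT and 1.20% and 1.27% in KO Endothelial sums (mean 1.22% ± 0.0448, SD, n = 4). In DoubleNegative sums it was 1.09% and 1.74% for WT and 1.26% and 1.48% for KO (mean 1.39% ± 0.279, n = 4). The DoubleNegative sums lay on both sides of the Endothelial ones. Over the 4 pairs of sums of the same genotype and preparation, the log2 ratio of Endothelial to DoubleNegative was −0.18 ± 0.25 (SD, n = 4), with 0.09 and −0.50 in WT and −0.07 and −0.22 in KO, a mean smaller than its spread. Taken relative to spike-in counts instead, the mean log2 ratio was 0.01 ± 0.28 (SD, n = 4), with 0.05 and −0.08 in WT and −0.30 and 0.37 in KO. Of the counts on members, complexes I and V took the largest parts in every sum. Complex I took 30.7% to 35.9%, complex V 26.4% to 29.0% and complex III 9.22% to 12.0%, and complex IV took on average 20.3% in Endothelial and 20.5% in DoubleNegative sums. Complex II took 5.50% to 6.41% in Endothelial and 3.48% to 5.87% in DoubleNegative sums. By well, the median share was 1.11%, 1.26%, 1.19% and 1.27% in the WT 1, WT 2, KO 1 and KO 2 Endothelial groups. Spearman's correlation of a well's share with its gene counts was between −0.19 and 0.50 in the 8 groups. The 240 wells below the filter had shares of 0.994% to 1.47% in the 7 groups that held any.

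**Figure D2:**
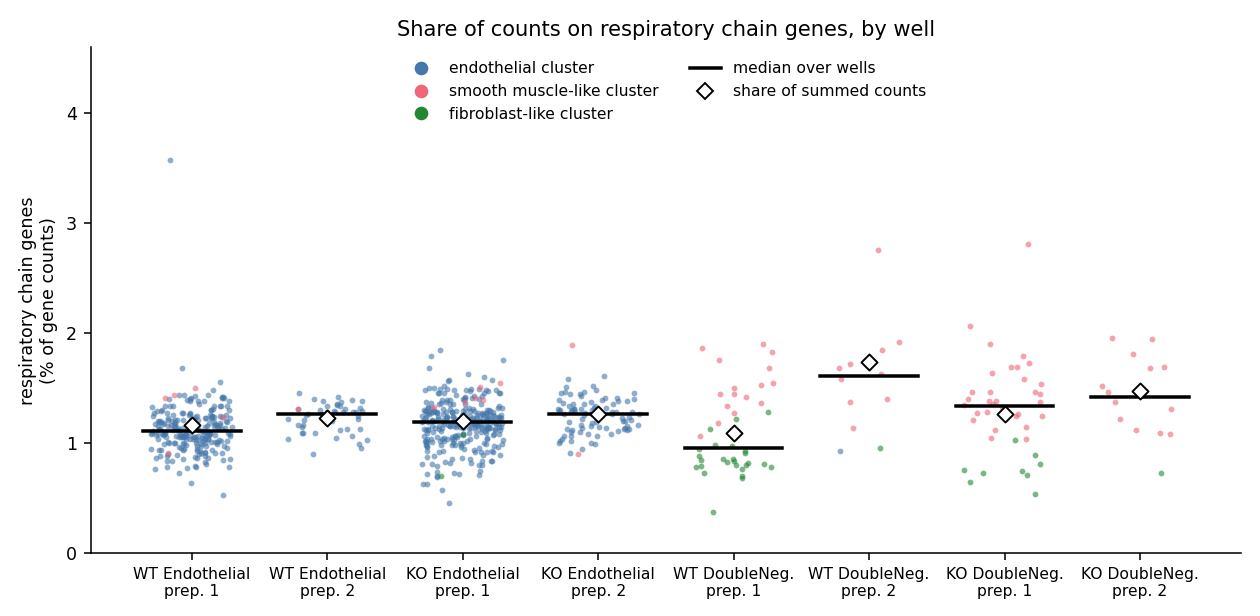
Percent of gene counts on respiratory chain genes in each kept well (points, coloured by the kind of cluster), by genotype, gate and preparation. Lines are medians over wells and diamonds the share of the summed counts. Fibroblast-like wells lie low, with medians of 0.832% (WT) and 0.746% (KO) in preparation 1, and a single WT Endothelial well stands at 3.57%.

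The spread among DoubleNegative sums went with the kinds of cells in them. In preparation 1 the median share was 0.832% over 26 fibroblast-like and 1.47% over 16 smooth muscle-like WT wells, and 0.746% over 9 and 1.39% over 31 such KO wells. In preparation 2, with 1 fibroblast-like well per genotype, the smooth muscle-like wells had medians of 1.66% (WT) and 1.47% (KO). Smooth muscle-like wells were thus higher than fibroblast-like wells in both genotypes, with ECs between them at medians of 1.11% to 1.27%. The clusters were made from the same counts with all genes, so these values are a description with no test.

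The difference ran through the complexes. Of 87 members tested between the gates, 77 were higher in the smooth muscle-like than in the fibroblast-like wells of preparation 1 in both WT and KO, against 32.1% of 12729 genes, and 1 (Ndufa4l2) was lower in both, against 22.6%. All genes were not matched to the members by level, and each genotype gave a single sum per kind of well. All 8 members of complex III and all 15 of complex V were higher in both genotypes, with 34 of 37 in complex I, 11 of 12 in complex IV and 2 of 4 in complex II. Any difference above 0 counted as higher, and some were close to 0. Atp5o was at 187.3 and 187.1 CPM in smooth muscle-like and fibroblast-like wells of WT, and at 136 and 127 CPM in KO. For Atp5f1 the log2 difference was 0.09 in WT and 0.18 in KO. The median log2 difference of the members was 0.84 in WT and 1.00 in KO, beside 0 and 0.24 over all genes. Cox4i1 was at 907 CPM in smooth muscle-like and 454 CPM in fibroblast-like wells of WT, and at 687 and 413 CPM in KO. Atp5b, the catalytic beta subunit of ATP synthase, was at 781 and 384 CPM in WT and at 853 and 401 CPM in KO. Uqcrc2, a core subunit of complex III, was at 286 and 113 CPM in WT and at 296 and 89.3 CPM in KO. Ndufb9, a complex I subunit of the membrane arm, was at 304 and 118 CPM in WT and at 288 and 89.3 CPM in KO. These 4 differed in the same direction in both genotypes. Sdhb, in contrast, was at 173 and 124 CPM in WT and at 171 and 180 CPM in KO. The values of Uqcrc2 and Ndufb9 are uncertain, since 74.4% and 74.5% of their windows are unique. Exons of other genes overlap 26.58% and 28.55% of their transcripts. Outside the chain, 15 of 18 genes of the tricarboxylic acid cycle, 13 of 16 of glycolysis, 11 of 13 carriers and 48 of 77 mitochondrial ribosomal genes were also higher in both. Nearer to the share of all genes were 9 of 18 complex IV assembly genes, 5 of 15 regulators and 3 of 9 coenzyme Q genes, and 17 of 82 cytosolic ribosomal genes lay below it.

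**Figure D3:**
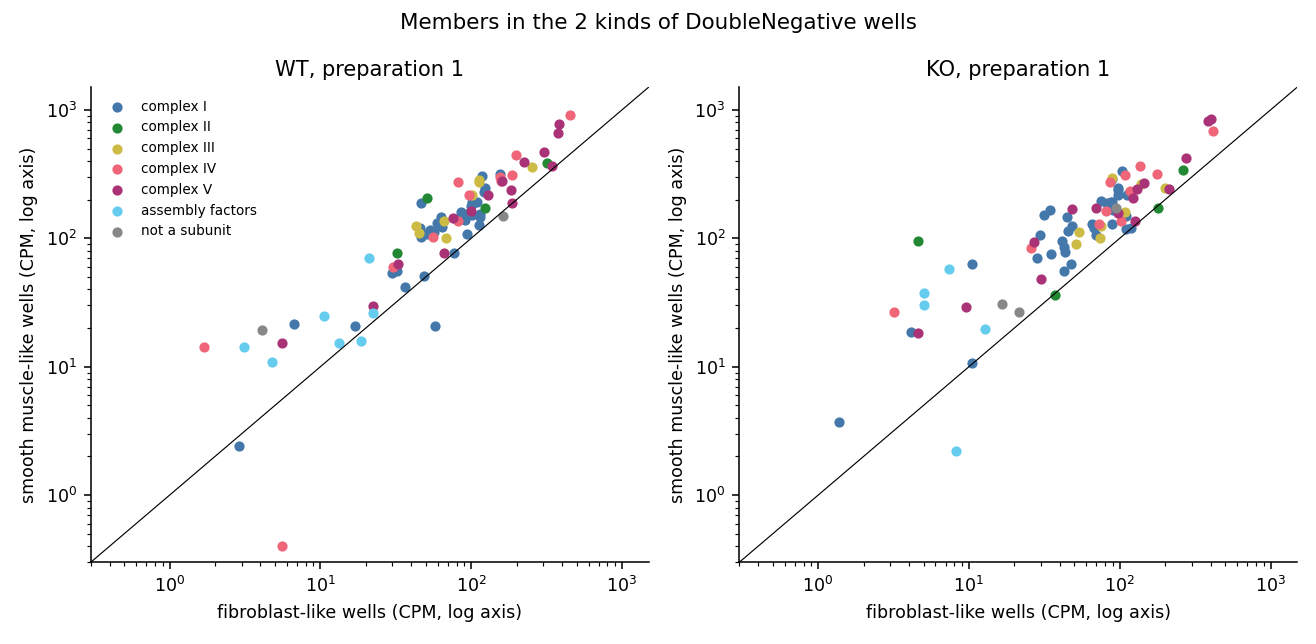
CPM of each member (log axes) in the summed smooth muscle-like (y) and fibroblast-like (x) DoubleNegative wells of preparation 1, for WT (left) and KO (right). The line marks equal levels, and members at 0 in either kind of well, such as Ndufa4l2, are not drawn. Most members lie above the line in both genotypes.

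To ask whether ECs and the other cells of the wall differed in the chain, the Endothelial and DoubleNegative sums were compared across all genes with the edgeR quasi-likelihood test, with a gene called at a Benjamini-Hochberg adjusted p under 0.05. Among 87 tested members, 0 were called higher and 3 lower in Endothelial sums, Ndufa11, Ndufa13 and Ndufa4l2. Of these, Ndufa4l2 passed the filter on low counts only through the DoubleNegative sums, as given below. Over all 12729 tested genes, 9.79% were called higher and 9.25% lower, and the members' counts lay below these shares in both directions. The 5 members not tested were Cox6a2, Cox7a1, Cox7b2, Cox8b and Cox8c, which had too few counts. The members' median log2 difference was −0.28, with 68 of 87 below 0, beside a median of 0.15 over all genes, with 5601 of 12729 below 0. By complex the median was −0.45 for complex I, 0.03 for complex II, −0.03 for complex III, −0.32 for complex IV, −0.39 for complex V and −0.12 for the assembly factors.

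Ndufa11, a complex I subunit of the membrane arm that is needed for the assembly of the complex, was at 68.2 and 68.9 CPM in WT and at 78.5 and 59.7 CPM in KO Endothelial sums. In DoubleNegative sums it was at 129 and 172 CPM in WT and at 140 and 111 CPM in KO. Every DoubleNegative sum lay above every Endothelial sum. The log2 difference was −1.11 (SE 0.257, edgeR adjusted p = 0.0176). Ndufa11 lies on chromosome 17 from 56717767 to 56722141 on the plus strand (GRCm38), and 12.8% of its transcript overlaps exons of other genes. Its value is also uncertain, since 71.8% of its windows are unique.

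Ndufa13, a complex I subunit also known as GRIM-19, was at 110 and 106 CPM in WT and at 135 and 128 CPM in KO Endothelial sums. In DoubleNegative sums it was at 134 and 248 CPM in WT and at 206 and 270 CPM in KO. The WT DoubleNegative sum of preparation 1, the one richest in fibroblast-like wells, lay just below the highest Endothelial sum, so the groups overlapped. The log2 difference was −0.95 (SE 0.285, edgeR adjusted p = 0.0478). Its value is uncertain, since 30.0% of its transcript on chromosome 8 (69894180 to 69902558, minus strand) overlaps exons of other genes and 66.8% of its windows are unique.

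Groups that did not overlap were counted for every member as a description. Lower in all 4 Endothelial sums than in all 4 DoubleNegative sums were 7 of 87 members (Cox8a, Ndufa1, Ndufa2, Ndufa11, Ndufa12, Ndufb9 and Uqcr10), against 8.98% of all genes, and higher were 2 (Cox7a2l and Sdha), against 17.3%. Cox7a2l, described as a factor that joins complexes III and IV into supercomplexes, which were not measured here, was at 253 and 246 CPM in WT and at 307 and 283 CPM in KO Endothelial sums. It was at 157 and 183 CPM in WT and at 153 and 141 CPM in KO DoubleNegative sums. This was the clearest separation in that direction, with a log2 difference of 0.66 (SE 0.229) and an edgeR adjusted p of 0.0784. Sdha, the flavoprotein subunit that oxidises succinate, was at 383 and 441 CPM in WT and at 419 and 378 CPM in KO Endothelial sums, against 342 and 230 CPM and 324 and 353 CPM in DoubleNegative sums. Its log2 difference was 0.26 (SE 0.243, edgeR adjusted p = 0.522).

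**Figure D4:**
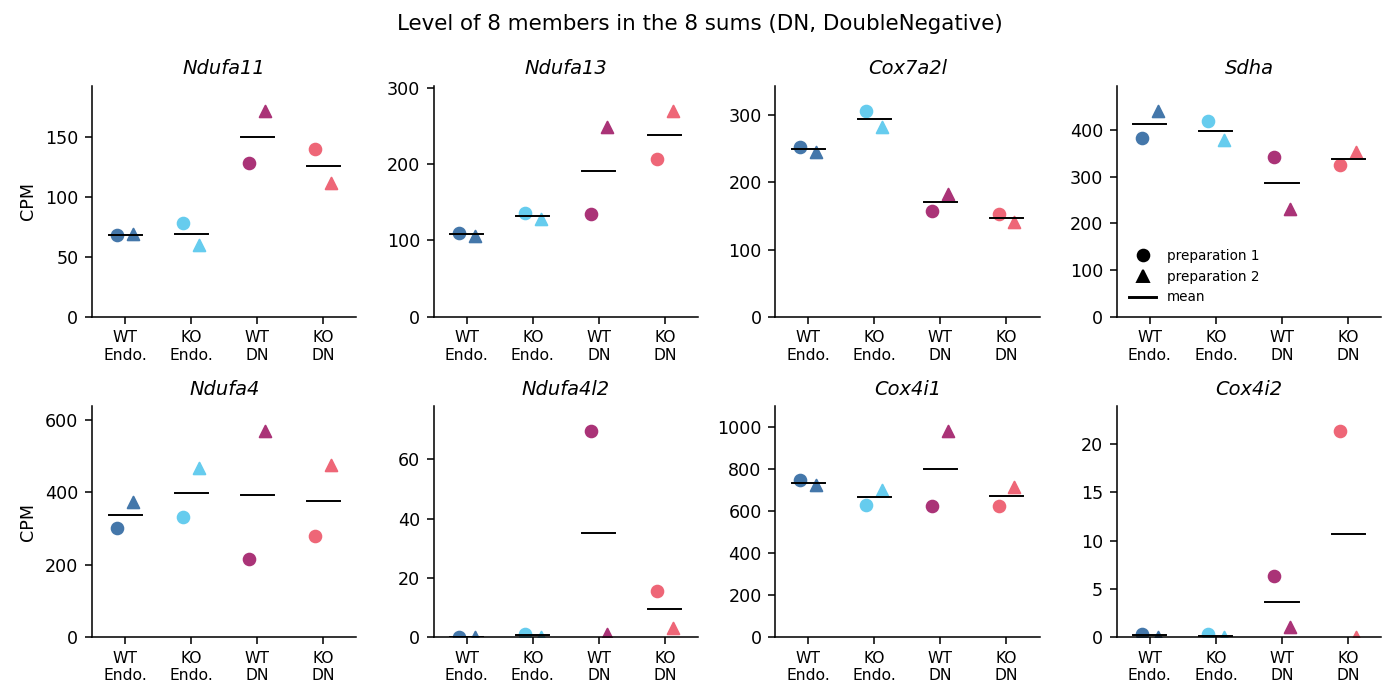
CPM of 8 members in the 8 sums, by genotype and gate (circles, preparation 1, triangles, preparation 2, lines, mean of both). Ndufa11 lies higher and Cox7a2l lower in every DoubleNegative sum than in every Endothelial sum, while Ndufa4l2 and Cox4i2 are high in single DoubleNegative sums of preparation 1.

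The core subunits of complexes I and III and the main subunits of the others showed no called difference. In complex I, the NADH-binding Ndufv1 had a log2 difference of 0.04 (SE 0.274), Ndufv2 of −0.53 (SE 0.296), Ndufs1 of −0.45 (SE 0.263), Ndufs3 of −0.24 (SE 0.387), Ndufs7 of −0.20 (SE 0.2502) and Ndufs8 of −0.59 (SE 0.259). In complex III, Uqcrc1 (−0.07, SE 0.231), Uqcrc2 (0.01, SE 0.255) and the Rieske protein Uqcrfs1 (0.23, SE 0.314) had differences smaller than their standard errors. Cox4i1 (−0.18, SE 0.252), Cox5a (−0.12, SE 0.345) and Cox5b (−0.11, SE 0.318), which surround the mitochondrially encoded core of complex IV, likewise lay within their errors. The alpha, beta and gamma subunits of ATP synthase, Atp5a1, Atp5b and Atp5c1, likewise not called, had log2 differences of −0.25 (SE 0.242), −0.41 (SE 0.309) and −0.36 (SE 0.257). Within complex II, Sdhb (−0.21, SE 0.247) lay within its error, and Sdhd (0.57, SE 0.370) and Sdhc (−0.66, SE 0.292) lay in opposite directions. With a median SE of 0.31 among members, a difference of the size seen in most of them was not detectable at this number of replicates.

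**Figure D5:**
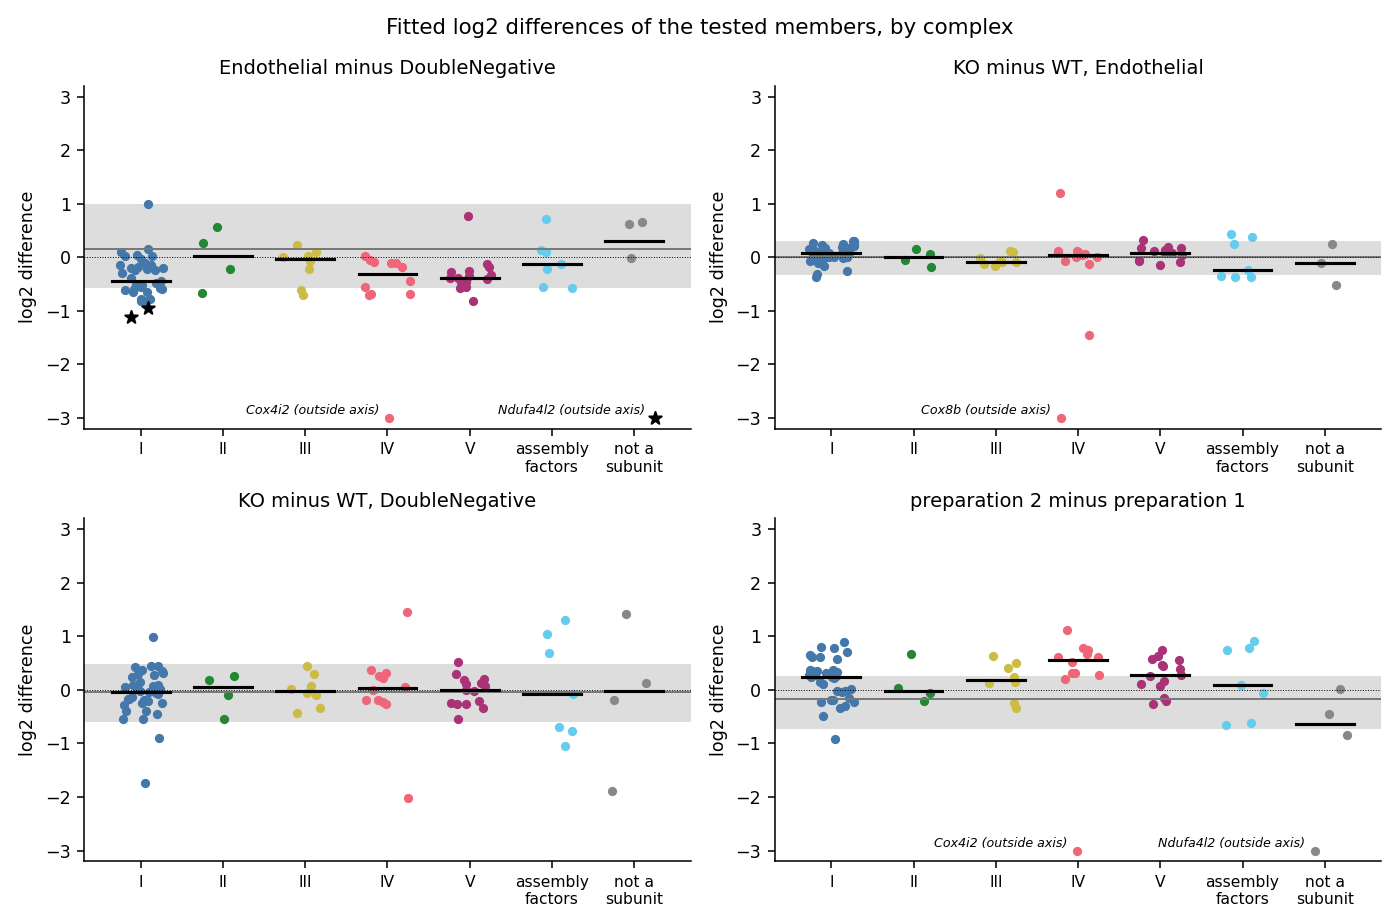
Fitted log2 difference of each tested member by complex, in 4 contrasts (Endothelial minus DoubleNegative, KO minus WT in each gate, and preparation 2 minus preparation 1). Short lines are medians of a complex, the grey band and line are the middle 50% and the median of all genes tested, stars are called members, and points beyond 3 in either direction are drawn at the edge with their name. Called members are seen only between the gates. Between preparations the medians of complexes I to V all lie above the band's line, and those of complexes IV and V lie above the whole band.

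The number of called members depended on single sums. It was 0 without either WT Endothelial sum, 1 (Ndufa4l2) without either KO Endothelial sum and 10 without the WT DoubleNegative sum of preparation 1, the sum with most fibroblast-like wells. DESeq2 called 7, among them Cox7a2l higher in Endothelial sums. In counts simulated for this contrast with a log2 change of 1, DESeq2 made 48 false calls beside 14 true ones. Ndufa11 was called without each DoubleNegative sum in turn and Ndufa13 without the WT DoubleNegative sum of preparation 1 alone. With deep wells only (at least 100000 gene counts), neither was called (edgeR adjusted p = 0.0550 and 0.0608).

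Several subunits have alternative forms, and these were compared by their share of the counts of both forms, with exact 95% binomial intervals that cover counting error only. Ndufa4l2, a paralogue of Ndufa4 known as a target of hypoxia-inducible factors, was at 0, 0, 1.23 and 0 CPM in the WT 1, WT 2, KO 1 and KO 2 Endothelial sums. In the DoubleNegative sums it was at 69.5, 1.01, 15.6 and 3.24 CPM in the same order. Its fitted difference was called (edgeR adjusted p = 0.0171), but it passed the filter on low counts only through the DoubleNegative sums, where it was high. The call is therefore no independent support for the difference. With most Endothelial sums at 0 the fitted fold is no bound. In preparation 1 of WT, DoubleNegative was at least 925-fold higher than Endothelial (a floor of 3 counts per sum). As a share of Ndufa4 and Ndufa4l2 together, Ndufa4l2 made up 24.3% (22.4 to 26.3) in WT and 5.29% (4.49 to 6.19) in KO DoubleNegative sums of preparation 1, and 0.178% and 0.677% in those of preparation 2. Per kilobase, its share was lower, at 17.3% and 3.52% in preparation 1 and at 0.116% and 0.443% in preparation 2. In WT Endothelial sums 0 of 12000 and 0 of 4235 counts were from Ndufa4l2, which allows up to 0.0250% and 0.0708% by a limit of 3 counts of the total, and up to 0.0307% and 0.0871% by the exact interval.

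Ndufa4l2 counts followed the fibroblast-like wells. It had a count in 20 of 26 WT and 6 of 9 KO fibroblast-like DoubleNegative wells of preparation 1, in the single such well of each genotype in preparation 2, and in both fibroblast-like KO Endothelial wells. None of the 70 smooth muscle-like DoubleNegative wells had a count. In preparation 1 the level in fibroblast-like wells was 111 CPM (WT) and 67.3 CPM (KO), at least 91.6-fold and 163-fold above the floor of the smooth muscle-like wells. The sole count in an endothelial-like well, 51 reads, came from a KO Endothelial well of preparation 1 that held all 4 pericyte markers (507 counts on Rgs5) beside all 10 endothelial markers. Ndufa4 itself was at 300 and 374 CPM in WT and at 331 and 467 CPM in KO Endothelial sums, and at 217 and 569 CPM in WT and at 279 and 475 CPM in KO DoubleNegative sums, with the sums of preparation 2 higher in each group.

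Cox4i2, the form of subunit IV known from lung and vascular smooth muscle and linked to oxygen sensing, was rare beside Cox4i1. It made up 1.01% (0.725 to 1.36) of the counts of both in WT and 3.30% (2.87 to 3.78) in KO DoubleNegative sums of preparation 1, 0.103% and 0 in those of preparation 2, and at most 0.0503% in Endothelial sums. In CPM, it was at 6.33, 1.01, 21.3 and 0 in the WT 1, WT 2, KO 1 and KO 2 DoubleNegative sums and at 0.375, 0, 0.295 and 0 in the Endothelial sums. Summed pericyte markers were at 1514 to 1665 CPM in DoubleNegative and 0.118 to 61.2 CPM in Endothelial sums, and their part in the Cox4i2 level was not tested. Its counts lay in few wells, 14 of 784, of which 5 of 31 KO smooth muscle-like wells of preparation 1 held 194. The fitted log2 difference of −5.15 (SE 1.62, edgeR adjusted p = 0.0566) turned to 0.36 (SE 3.82) without the KO DoubleNegative sum of preparation 1. The 28 Cox4i2 counts of KO Endothelial wells came from the same well with pericyte markers.

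Muscle and fat forms were near 0. Cox7a1, the form of heart and skeletal muscle, made up 0.367% and 0.194% of Cox7a1 and Cox7a2 counts in WT and 0.0409% and 0.160% in KO Endothelial sums, in 3 to 9 wells each. Per kilobase, these shares were 0.613% and 0.325% in WT and 0.0685% and 0.268% in KO. In the DoubleNegative sums, 1 Cox7a1 count was found in all. Cox8b, known from heart, skeletal muscle and brown fat, made up 3.00% (2.68 to 3.35) of Cox8a and Cox8b counts in the WT Endothelial sum of preparation 1, and 4.52% per kilobase. Of all 353 Cox8b counts, 306 lay in 1 WT Endothelial well of that preparation. That well held 3401 counts on Adipoq, 764 on Plin1, 298 on Cidea and 54 on Lep, markers of fat cells, 0 on Ucp1 and none on any of the 10 endothelial markers. It was also the well with the highest share of counts on the chain, 3.57%. Cox8b was at 0 in all 4 DoubleNegative sums. Cox6b2, the testis form of a complex IV subunit, was at 0 to 3.62 CPM in all sums, beside 203 to 270 CPM for Cox6b1.

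Subunit c of ATP synthase, which forms the rotor ring, is made from 3 genes with the same mature protein. By counts, Atp5g3 gave 65.9% to 79.3%, Atp5g1 16.5% to 25.9% and Atp5g2 1.72% to 9.05% of their total in the 8 sums. The order was the same in every sum. Atp5g2 took 5.70% to 9.05% in Endothelial and 1.72% to 7.53% in DoubleNegative sums, which overlapped, and only 12.3% of its windows are unique, so that reads can be lost to pseudogenes and copies. Per kilobase, with the long transcript model noted above, Atp5g1 took 3.96% ± 0.886 and Atp5g2 9.28% ± 1.74 (SD, n = 4) in Endothelial sums, so the order of Atp5g1 and Atp5g2 depends on the length used.

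Whether loss of AmotL2 changed the chain was asked within each gate. Between KO and WT Endothelial sums, 0 of 87 members and 0 of 12702 genes (0%) were called by edgeR, and 0 members had an unadjusted p under 0.05, against 3.68% of all genes. DESeq2 called 0.291% of genes and 0 members. The median log2 difference of the members was 0.06, beside 0.00 over all genes, and the sums did not overlap for 12 members that were higher in KO (13.8%, against 14.9% of genes) and 9 that were lower (10.3%, against 14.6%). The largest differences of the same sign in both preparations were in low members, Cox6b2 (1.21, SE 1.22) and Cox7a1 (−1.45, SE 1.78). Among members with a higher level, Ndufs8, an iron-sulphur subunit, was at 102 and 89.0 CPM in WT and at 79.7 and 68.6 CPM in KO (log2 difference −0.36, SE 0.261, edgeR adjusted p = 1.00). Atp5b was at 643 and 701 CPM in WT and at 769 and 757 CPM in KO, a log2 difference of 0.19 (SE 0.248). Cox4i1 was at 747 and 722 CPM in WT and at 631 and 702 CPM in KO, a log2 difference of −0.12 (SE 0.255). In these 3 members both KO sums lay on the same side of both WT sums, and none was called. Other members named by size were Ndufaf4 (0.44), Ndufaf7 (0.38) and Atp5k (0.32) in one direction and Atp5sl (−0.51), Ndufaf1 (−0.36) and Ndufaf2 (−0.34) in the other, all with an adjusted p near 1.

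In DoubleNegative sums, whose cells the Cre driver does not target, 0 of 87 members and 0 of 10544 genes (0%) were called between KO and WT. At an unadjusted p under 0.05 there were 0 members, against 2.61% of genes, and DESeq2 called 0.0474% of genes and 0 members. The median log2 difference was −0.02, beside −0.03 over all genes, with a median SE of 0.56. Sums did not overlap for 4 members higher in KO (against 13.6% of genes) and 8 lower (against 15.1%). Ndufs8 was at 99.3 and 66.8 CPM in WT and at 163 and 166 CPM in KO, so both KO sums lay above both WT sums (log2 difference 0.99, SE 0.513). Ndufb4, an accessory subunit of the membrane arm, was at 18.2 and 23.3 CPM in WT and at 10.6 and 1.08 CPM in KO (−1.74, SE 1.33). Ndufb6 was at 94.2 and 244 CPM in WT and at 83.1 and 93.9 CPM in KO (−0.90, SE 0.588). Both values are uncertain, since 61.7% of the windows of Ndufb4 and 63.9% of those of Ndufb6 are unique. Cox6b2 (−2.03), Ndufaf7 (−1.06) and Ndufaf2 (−0.70) were the other members lower by size, and Ndufaf3 (1.04), Atp5k (0.51), Ndufs5 (0.45) and Uqcrc1 (0.45) those higher. The WT and KO DoubleNegative sums of preparation 1 differed in makeup as given above, and the part of that in these values was not tested.

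Whether the difference between KO and WT itself differed between the gates was tested as an interaction. No gene was called (0% of 12729 genes, 5.16% with an unadjusted p under 0.05, 0.361% by DESeq2). At an unadjusted p under 0.05 there were 2 members. Ndufs8 was lower in KO among Endothelial and higher among DoubleNegative sums, an interaction of −1.38 (SE 0.519, edgeR adjusted p = 0.955). The other was Ndufa4l2, with the sums near 0 described above. The largest other interactions of the same sign in both preparations were those of Cox6b2 (3.42), Ndufb4 (1.79), Ndufaf7 (1.39), Ndufb6 (1.02) and Ndufa9 (0.62) above 0 and of Ndufaf1 (−1.02), Ndufaf3 (−0.83), Ndufs5 (−0.50) and Uqcrc1 (−0.47) below, none called. With the preparation as a replicate block, 0 members were called between KO and WT in either gate or in the interaction, and the same 3 members were called between the gates.

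The remaining axis was the preparation. With the 4 groups held in the fit, 0 of 12729 genes (0%) were called by edgeR between preparation 2 and preparation 1, with 5.51% at an unadjusted p under 0.05, and 0.632% were called by DESeq2. Members leaned to preparation 2, with a median log2 difference of 0.26 beside −0.18 over all genes. Of 87 members, 14 were higher and 2 lower at an unadjusted p under 0.05, against 246 higher and 455 lower of 12729 genes. In all 4 groups 25 of 87 members (28.7%) were higher in preparation 2, against 5.33% of all genes, and 5 were lower (Cox4i2, Ndufs5, Ndufs7, Ndufv1 and Uqcrc2), against 13.6%. The median was 0.56 for complex IV, 0.29 for complex V, 0.24 for complex I, 0.19 for complex III and −0.01 for complex II.

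Cox7c, a small subunit of complex IV, was at 47.8 and 79.3 CPM in WT and at 46.8 and 86.3 CPM in KO Endothelial sums of preparations 1 and 2. In DoubleNegative sums it was at 41.4 and 134 CPM in WT and at 70.4 and 147 CPM in KO. Preparation 2 was higher in all 4 groups, with a log2 difference of 1.13 (SE 0.277, edgeR adjusted p = 0.836, DESeq2 adjusted p = 0.0281). Its value is uncertain since 44.3% of its windows are unique. Ndufb3, an accessory subunit of complex I, was at 66.5 and 118 CPM in WT and at 84.0 and 121 CPM in KO Endothelial sums, and at 85.6 and 168 CPM and 97.8 and 163 CPM in DoubleNegative sums. Its log2 difference was 0.80 (SE 0.229, edgeR adjusted p = 0.836, DESeq2 adjusted p = 0.0495). Ndufc1 (0.89, SE 0.286), Ndufaf4 (0.91, SE 0.429) and Ndufaf2 (0.79, SE 0.347) were the other members with a large difference. In the other direction were Cox4i2 (−4.77), Ndufs5 (−0.91), Ndufv1 (−0.33), Uqcrc2 (−0.24) and Ndufs7 (−0.22).

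Other values moved with the preparation too. Cytosolic ribosomal genes, which are also short and abundant, had a median log2 difference of 0.48. Of these, 35 of 82 were higher at an unadjusted p under 0.05, against 246 of 12729 genes. The members' difference fell with transcript length (Spearman's correlation −0.25 over 86 members, beside 0.04 over 11835 genes, as a description). Within groups, the median log2 difference of the members was 0.01 in WT and 0.01 in KO Endothelial sums and 0.64 in WT and 0.19 in KO DoubleNegative sums. The median over genes was −0.08 and −0.23 in Endothelial and −0.11 and −0.16 in DoubleNegative sums. DoubleNegative sums of preparation 1 held 35 fibroblast-like wells and those of preparation 2 held 2. The part of makeup, plate and depth in the lean to preparation 2 was not tested.

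Genes around the chain were read from lists chosen with earlier results of these data known. Their counts stand beside the 9.79% of all genes called higher and 9.25% called lower between the gates. There, 4 of 13 carriers and partner genes were called lower in Endothelial sums. They were Higd1a, a hypoxia-induced partner of complex IV (−2.76, SE 0.309), Slc25a4 (−1.16, SE 0.266) and Slc25a5 (−0.97, SE 0.289), which exchange ATP for ADP across the inner membrane, and Etfa (−0.997, SE 0.251), which passes electrons from fatty acid oxidation. Of 18 genes of the tricarboxylic acid cycle, 3 were lower, Suclg2 (−2.54, SE 0.426), Idh3a (−1.47, SE 0.274) and Idh2 (−1.36, SE 0.315). Of 16 glycolysis genes, 4 were lower, Ldhb (−3.14, SE 0.432), Pfkp (−1.51, SE 0.245), Tpi1 (−0.90, SE 0.247) and Hk2, and none was higher (Hk2 was at 0 to 1.10 CPM in Endothelial and 12.5 to 44.3 CPM in DoubleNegative sums). Among 15 regulators of mitochondrial genes, Epas1, the hypoxia-inducible factor typical of endothelium, was higher (3.63, SE 0.314, at 1414 to 1622 CPM in Endothelial and 71.2 to 152 CPM in DoubleNegative sums). Gabpb1, a subunit of the ETS factor GABP, was also higher (2.69, SE 0.429), and the coactivator Ppargc1b was lower, at 0.0882 to 1.65 CPM in Endothelial and 2.86 to 32.4 CPM in DoubleNegative sums. Of 77 mitochondrial ribosomal genes 1 was higher (Mrpl44, 1.40, SE 0.350), and of 82 cytosolic ribosomal genes 4 were higher, among them Rps3, Rps14 and Rpl39l, and none lower. Rpl39l was at 0.991 to 3.07 CPM in Endothelial sums and at 0 in all DoubleNegative sums. Hk2, Ppargc1b and Rpl39l passed the filter on low counts through the gate where they were high. Their calls are therefore no independent support for a difference. No gene was called among 18 complex IV assembly and 9 coenzyme Q genes. Median log2 differences were −0.56 for carriers, −0.53 for the tricarboxylic acid cycle, −0.65 for glycolysis, 0.18 for complex IV assembly, 0.21 for coenzyme Q synthesis, −0.30 for regulators, −0.10 for the mitochondrial and 0.36 for the cytosolic ribosome. In the contrasts of genotype and of preparation, 0 genes of these lists were called by edgeR. With pairs of gates of the same genotype and preparation as a replicate block, Ppargc1b (edgeR adjusted p = 0.114), Rpl39l (0.151) and Slc25a5 (0.0639) were no longer called between the gates.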

How the data were processed

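Counts were deposited by the authors as whole reads per gene and well, with no normalization. Per the processing notes and the study's methods, reads were aligned to GRCm38 with spike-in and EYFP sequences by STAR 2.7.7a, duplicates were removed with Picard 2.22.0 and reads were counted with HTSeq 0.9.1. The annotation release is not given in the sources used here. Genes held 51.9% of all counts. The 92 spike-ins (1.25%) and 5 HTSeq summary lines (46.9%, of which 32.0% of all counts were not uniquely aligned) stayed out of library sizes and tests. Reads that align to several places, such as those of processed pseudogenes of chain genes, were thus not counted.

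Wells with at least 20000 gene counts and 500 genes were kept, and counts were summed by genotype, gate and preparation. Sums of 926398 to 94881185 counts differ in precision, and the DoubleNegative sums of preparation 2 are the least precise. No doublet caller was run, and cells had been sorted through a singlet gate. Sums were tested with the edgeR 4.0.16 quasi-likelihood test (TMM) across all genes that passed its filter on low counts, with p-values adjusted by Benjamini-Hochberg and a threshold of 0.05, and log2 differences between single sums, given as descriptions, used a prior count of 0.5 scaled to each library. The gate and interaction fits held all 8 sums, each genotype fit held the 4 sums of its gate, and DESeq2 1.42.0 was an alternative. Clusters were made with Seurat 5.3.0 (2000 variable genes, 30 components, resolution 0.5). Lengths, overlaps and windows of 31 bases came from GENCODE M21, in which 91 of 92 members were found by symbol. R 4.3.3, Python 3.11.15, limma 3.58.1, numpy 2.4.6, pandas 2.3.3, scipy 1.17.1 and matplotlib 3.10.9 were used.

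The members and lists were chosen with earlier results of these data known. Named were isoform pairs, catalytic and core subunits, every called member and the 5 members with the largest difference of the same sign in each direction of a contrast, with list genes that were called. Members whose groups did not overlap, and Ndufb9, Ndufb4 and Atp5j, were named after their values were seen where no rule gave them. Some genes that the rule names are not reported here. The number is a sort number in the labels, which do not say that WT and KO wells of a number shared a preparation. Samples were paired by this number in the replicate block. Deviations from group means correlated at 0.147 between WT and KO Endothelial sums, 0.0771 between DoubleNegative sums, and 0.0640 (WT) and 0.0408 (KO) between gates, over 12729 genes. In counts simulated for the gate contrast, with 200 genes changed, edgeR recovered 0.5% of genes changed by a log2 of 1 (12445 genes) and 61.0% at a log2 of 3 (12429 genes). Its false calls numbered 2 and 10. DESeq2 recovered 7% and 77.5%, with 48 and 86 false calls.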

Additional observations from a re-analysis of the deposited data

How the results depend on the processing

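The number of members called between the gates was 3, and it was 7 with DESeq2 and 5 with wells thinned to 20000 gene counts. Leaving out each sum in turn gave 0 to 10 calls, as described above. The replicate block gave 3. The interaction had 0 calls and 1 (Ndufa4l2) with no filter on low counts, and the preparation contrast had 0 and 2 (Cox7c and Ndufb3) with DESeq2. Between KO and WT, the number of called members was 0 in both gates under every alternative run. Over leave-one-out fits, the log2 difference of Cox4i2 between the gates ran from −7.68 to 0.36, the latter without the KO DoubleNegative sum of preparation 1. The per-kilobase shares of the subunit c genes moved with transcript length. Atp5g1 took 3.96% in Endothelial and 3.94% in DoubleNegative sums, 21.2% in both with no division by length, and 23.3% and 23.8% with the shortest transcript of the same rank. Atp5g2 took 9.28% in Endothelial sums and 11.5% with the shortest transcript. Atp5g3 took 86.8% and 91.6%, 71.0% and 75.04% with no division by length, and 65.1% and 70.5% with the shortest transcript. The alternatives with the shortest transcript, and without wells that held pericyte or adipocyte markers, were chosen after seeing the data. With 2 preparations per group and simulated recovery as given in the methods, smaller differences were not detectable.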
